A study of Mus musculus with 4 samples.

Results

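The genes described here are 9 factors through which cells sense and damp interferon: the receptor chains Ifnar1 and Ifnar2, the transcription factors Stat2, Irf9, Irf1 and Irf7, and the feedback genes Usp18, Isg15 and Socs1. Their probes were found by gene symbol, with no threshold on a measured value. They are 9 of the 20619 genes with a probe well above background on at least 1 array. They are covered by 17 of the array's 56605 probes, a count without that filter. Of these 17 probes, 16 were well above background on all 4 arrays by the scanner's own flag, and the remaining one, for Stat2, on 3 arrays.

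The 4 arrays carry RNA of cultured primary hepatocytes of the mouse, 1 array per group, all taken 24 h after plating, with unattached cells washed off by a change of medium at 4 h. The control and Drp1LiKO groups were untreated, and the same genotypes formed the other pair of groups with 200 μM palmitate, a saturated fatty acid. Drp1LiKO cells lack Drp1, the mitochondrial fission protein encoded by Dnm1l, because a floxed allele was recombined by Cre under the albumin promoter, which is active in hepatocytes. The control cells came from sibling littermates with the floxed alleles and no deletion, although GEO's labels name them wild-type or Drp1flox. The labels give the strain C57BL/6, and the study's methods name male mice throughout. The age of the mice that gave the cells and how many mice each array stands for are not given in the sources used here. Nor is the length of palmitate treatment for these arrays, although the study treated hepatocytes for 24 h in its cytokine and imaging experiments. The untreated control array is not exclusive to this study, since its label points to a sample of an earlier series with identical raw data. No group has a replicate. The number of arrays thus bounds the precision, and no difference below is compared with variation among mice or cultures.

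Type I interferons bind a receptor made of Ifnar1 and Ifnar2. The receptor activates Janus kinases, which phosphorylate STAT proteins, among them Stat2, and Stat2 joins Irf9 in interferon-stimulated gene factor 3 (ISGF3). ISGF3 binds the interferon-stimulated response element (ISRE) in the promoters of antiviral genes, whereas interferon gamma acts mainly through the gamma-activated sequence (GAS). Irf7 and Irf1 are themselves interferon-inducible, and Irf7 drives the transcription of interferon alpha genes. Usp18 blocks signalling at Ifnar2 and removes Isg15 from proteins, Isg15 is a ubiquitin-like modifier, and Socs1 inhibits Janus kinases. In the liver, hepatocytes, Kupffer cells and endothelial cells all respond to type I interferon.

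Promoter sequence shows which members carry these elements close to their start. RefSeq windows of 250 bases before and 50 bases after the start (GRCm38.p6) were found for 8 of the 9 members, in 10 windows; Usp18 is named only. An ISRE core (GAAANNGAA, either strand, overlapping matches counted separately) was found in 3 members and a GAS (TTCNNNGAA, a palindrome that reads alike on both strands) in another 3. Over all 32851 windows of the same length, 8.56% held the ISRE core and 8.30% the GAS. Isg15 held 3 overlapping ISRE cores that began between 78 and 66 bases before the start, and 0.624% of all windows held at least 2. Socs1 held 2, at 83 and 77 bases, and Stat2 held 1 on the opposite strand at 221 bases. A GAS began 90 bases before the start of Irf1, 214 before that of Ifnar2 and 5 before that of Ifnar1. Irf7 and Irf9 held neither motif in these windows. A match of letters is a description of the sequence and not a measured binding site. The stretches around the motifs of 4 members follow, since they hold the runs of ISRE cores in 2 feedback genes and a single ISRE core and GAS in 2 transcription factors. They are written 5′ to 3′ on the strand of the gene with the motif in capitals. Isg15 lies at chr4:156200836-156200936 on the minus strand, Socs1 at chr16:10785565-10785659 on the minus strand, Stat2 at chr10:128270248-128270325 on the plus strand and Irf1 at chr11:53769884-53769972 on the plus strand.
Isg15: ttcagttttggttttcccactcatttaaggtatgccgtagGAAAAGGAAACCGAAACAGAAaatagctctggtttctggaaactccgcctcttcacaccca
Socs1: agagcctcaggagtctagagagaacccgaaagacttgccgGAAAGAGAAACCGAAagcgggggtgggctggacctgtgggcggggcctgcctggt
Stat2: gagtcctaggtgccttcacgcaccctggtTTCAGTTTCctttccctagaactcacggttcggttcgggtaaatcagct
Irf1: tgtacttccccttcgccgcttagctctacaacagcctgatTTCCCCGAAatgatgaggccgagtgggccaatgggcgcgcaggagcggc

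Levels below are log2 intensities relative to the 75th percentile of each array, which is set to 0, and differences are in log2 units, so that 1 is a 2-fold difference. Each gene is represented by its brightest probe, whose position is given in mm9, the build of the array files. Between 44.7% and 51.1% of all probes were well above background per array. The targeted gene was read first: Dnm1l stood at 2.42 in control and 1.07 in Drp1LiKO, and at 2.43 and 1.01 with palmitate. Slide 1 held both untreated arrays and slide 2 both palmitate arrays, so palmitate and slide cannot be told apart, whereas each slide held both genotypes. These are bulk samples, in which a larger share of cells of a type and more RNA per cell cannot be told apart.

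The first comparison asks how the members differ between the genotypes without fatty acid. In untreated cells 6 of the 9 members were at least 2-fold higher in Drp1LiKO than in control, namely Isg15, Usp18, Irf7, Stat2, Irf9 and Ifnar1, and 0 were at least 2-fold lower. Of 19878 genes tested, 8.84% were at least 2-fold higher and 5.58% at least 2-fold lower. With palmitate 4 members were at least 2-fold higher, Isg15, Usp18, Irf7 and Stat2, and 0 at least 2-fold lower, against 7.26% higher and 4.26% lower of 18892 genes. The median difference of the 9 members was 1.11 in untreated cells and 0.85 with palmitate, and that of all genes tested was -0.02 and -0.03. Both member medians are the values of Ifnar1, whose other probes did not show this difference, as given below. With the mean of all probes of a gene, 5 members were at least 2-fold higher in untreated cells, without Ifnar1. Irf1, Ifnar2 and Socs1 lay between -0.29 and 0.15 in both comparisons.

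**Figure D1:**
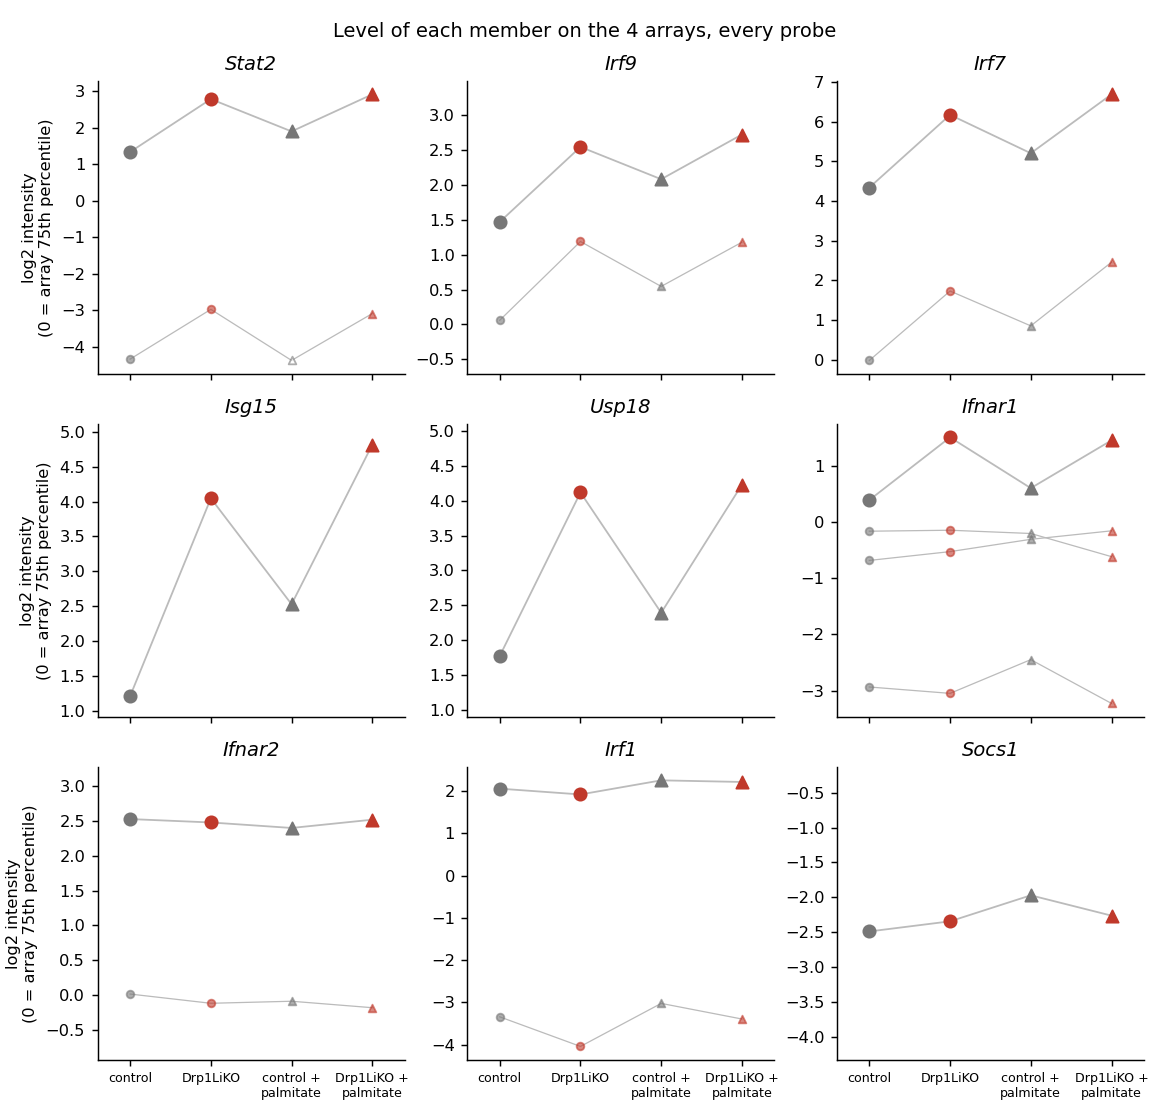
Level of each member (log2 intensity, 0 at the 75th percentile of the array) on the control and Drp1LiKO arrays without (circles) and with palmitate (triangles), Drp1LiKO in red. Large symbols are the probe that stands for the gene, small symbols its other probes, an open symbol a probe not well above background, and axes differ in their limits but span at least 4 log2 units. Isg15 went from 1.21 on the control array to 4.82 on the Drp1LiKO palmitate array, while Irf1 lay between 1.92 and 2.25 on all 4.

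Among the receptor chains, Ifnar2, the chain that Usp18 binds, read 2.53 in control, 2.48 in Drp1LiKO, 2.40 in control with palmitate and 2.52 in Drp1LiKO with palmitate (chr16:91394044-91394103). Its 4 levels lay within 0.13 of each other, the narrowest range of the 9 members. The genotype differences were -0.05 in untreated cells and 0.12 with palmitate, and a second probe gave -0.13 and -0.09.

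Ifnar1, the other chain, read 0.39 in control, 1.51 in Drp1LiKO, 0.60 in control with palmitate and 1.45 in Drp1LiKO with palmitate at the probe that stands for it (chr16:91508662-91508721). Both Drp1LiKO arrays were above both control arrays, with differences of 1.11 and 0.85. The other 3 Ifnar1 probes did not show this, although each was well above background on all 4 arrays. At chr16:91507039-91507098 the differences were 0.02 and -0.41, at chr16:91491902-91491961 they were 0.16 and 0.15, and at chr16:91503764-91505350 they were -0.11 and -0.78. The accession of the probe at 91491902 had no match among the RefSeq symbols. The mean of the 4 probes differed by 0.29 in untreated cells and by -0.05 with palmitate, so the higher Ifnar1 level rests on 1 probe.

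Stat2, the subunit of ISGF3 that carries its activation domain, read 1.34 in control, 2.79 in Drp1LiKO, 1.90 in control with palmitate and 2.92 in Drp1LiKO with palmitate (chr10:127729834-127729893). Its genotype difference was 1.45 in untreated cells, 2.73-fold, and 1.02 with palmitate, 2.02-fold. A dimmer second probe (chr10:127719861-127720302) gave 1.36 in untreated cells. With palmitate this probe was dim in control, where the scanner did not flag it, and Drp1LiKO was at least 2.44-fold higher.

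Irf9, the DNA-binding subunit of ISGF3, read 1.47 in control, 2.55 in Drp1LiKO, 2.08 in control with palmitate and 2.73 in Drp1LiKO with palmitate (chr14:56228806-56228865). The difference was 1.08 in untreated cells and 0.64 with palmitate, where it was below 2-fold. A second probe (chr14:56228256-56228315) gave 1.13 and 0.63. Without palmitate Stat2 and Irf9 thus both exceeded control at least 2-fold in Drp1LiKO, and both had a smaller genotype difference with palmitate.

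Irf7 read 4.34 in control, 6.18 in Drp1LiKO, 5.21 in control with palmitate and 6.69 in Drp1LiKO with palmitate (chr7:148449104-148449163). The genotype difference was 1.83 in untreated cells, 3.56-fold, and 1.49 with palmitate, 2.80-fold. A second probe (chr7:148450664-148451014) gave 1.75 and 1.61. Only 1.34% of the 17653 genes measured on both untreated arrays had a larger difference.

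Irf1, a factor induced mainly by interferon gamma, read 2.06 in control, 1.92 in Drp1LiKO, 2.25 in control with palmitate and 2.22 in Drp1LiKO with palmitate (chr11:53590746-53590805). Its differences were -0.14 and -0.04, far from those of Irf7 and Irf9. A dim second probe (chr11:53587446-53587591) gave -0.70 and -0.37, so neither probe was higher in Drp1LiKO.

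Isg15 read 1.21 in control, 4.05 in Drp1LiKO, 2.53 in control with palmitate and 4.82 in Drp1LiKO with palmitate (chr4:155573649-155573708). It had the largest genotype difference of the members in both conditions, 2.84 in untreated cells (7.15-fold) and 2.29 with palmitate (4.89-fold). It ranked 57th from the highest among 17653 genes measured on both untreated arrays and 95th among 16786 with palmitate.

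Usp18, which removes Isg15 from its targets, read 1.77 in control, 4.12 in Drp1LiKO, 2.39 in control with palmitate and 4.23 in Drp1LiKO with palmitate (chr6:121220874-121220933). Its differences were 2.35 and 1.84, or 5.08-fold and 3.57-fold, and it ranked 122nd and 147th in the same order of comparisons. Usp18 and Isg15 have 1 probe each, so no second probe bears on them.

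Socs1 read -2.49 in control, -2.34 in Drp1LiKO, -1.97 in control with palmitate and -2.26 in Drp1LiKO with palmitate (chr16:10783951-10784010). The difference was 0.15 in untreated cells and -0.29 with palmitate, and it was -0.04 in untreated cells when arrays were scaled to their median. The feedback genes therefore differed among themselves, with Usp18 and Isg15 at least 2-fold higher in Drp1LiKO in both conditions and Socs1 below 2-fold in both. Socs1 too has 1 probe, the dimmest of those that stand for a member, with intensities between 86.4 and 108.

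**Figure D2:**
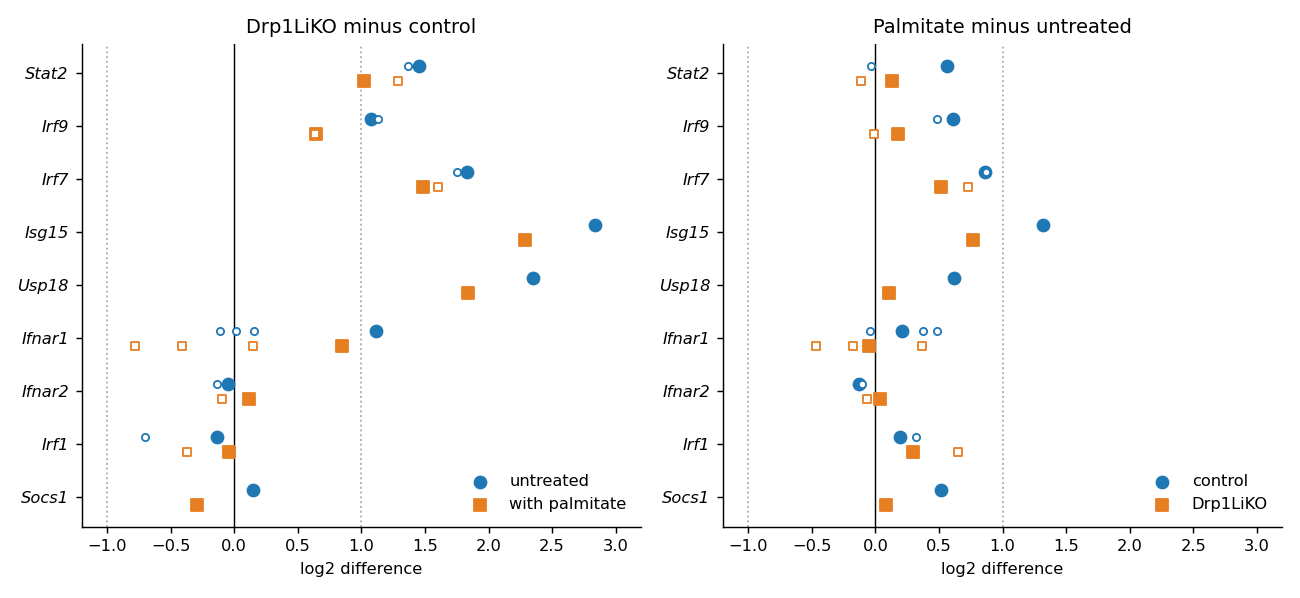
Log2 differences of each member, Drp1LiKO minus control on the left (untreated in blue, with palmitate in orange) and palmitate minus untreated on the right (control in blue, Drp1LiKO in orange). Filled symbols are the probe that stands for the gene, open symbols its other probes, and dotted lines mark a 2-fold difference. The 4 probes of Ifnar1 lay between -0.11 and 1.11 in untreated cells, while both probes of Irf7 lay between 1.49 and 1.83 over both genotype comparisons.

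The genotype term was also fitted over all 4 arrays with limma in an additive model with palmitate as the second term, which left 1 residual degree of freedom. None of the 9 members passed a Benjamini-Hochberg adjusted p of 0.05, nor did any of 20619 genes (0%), whose smallest adjusted p was 0.119. At an unadjusted p under 0.05, limma called 6 members and 5364 of the 20619 genes. The limma coefficient was 2.56 (SE 0.198, adjusted p = 0.119) for Isg15, 2.09 (SE 0.186, adjusted p = 0.121) for Usp18 and 1.66 (SE 0.137, adjusted p = 0.121) for Irf7. It was 1.23 (SE 0.162) for Stat2, 0.98 (SE 0.114) for Ifnar1 and 0.86 (SE 0.163) for Irf9, with limma adjusted p between 0.126 and 0.162. For Irf1, Socs1 and Ifnar2 the coefficients were -0.09, -0.07 and 0.03. Other settings moved the number of members that passed the adjusted threshold. It was 5 under normexp background correction, where limma called 1416 of 20619 genes. Leaving out genes dim on any array gave 6 members, with 2588 of 16613 genes called. A variance that followed an intensity trend also gave 6, with 5353 of 20619 genes called.

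**Figure D3:**
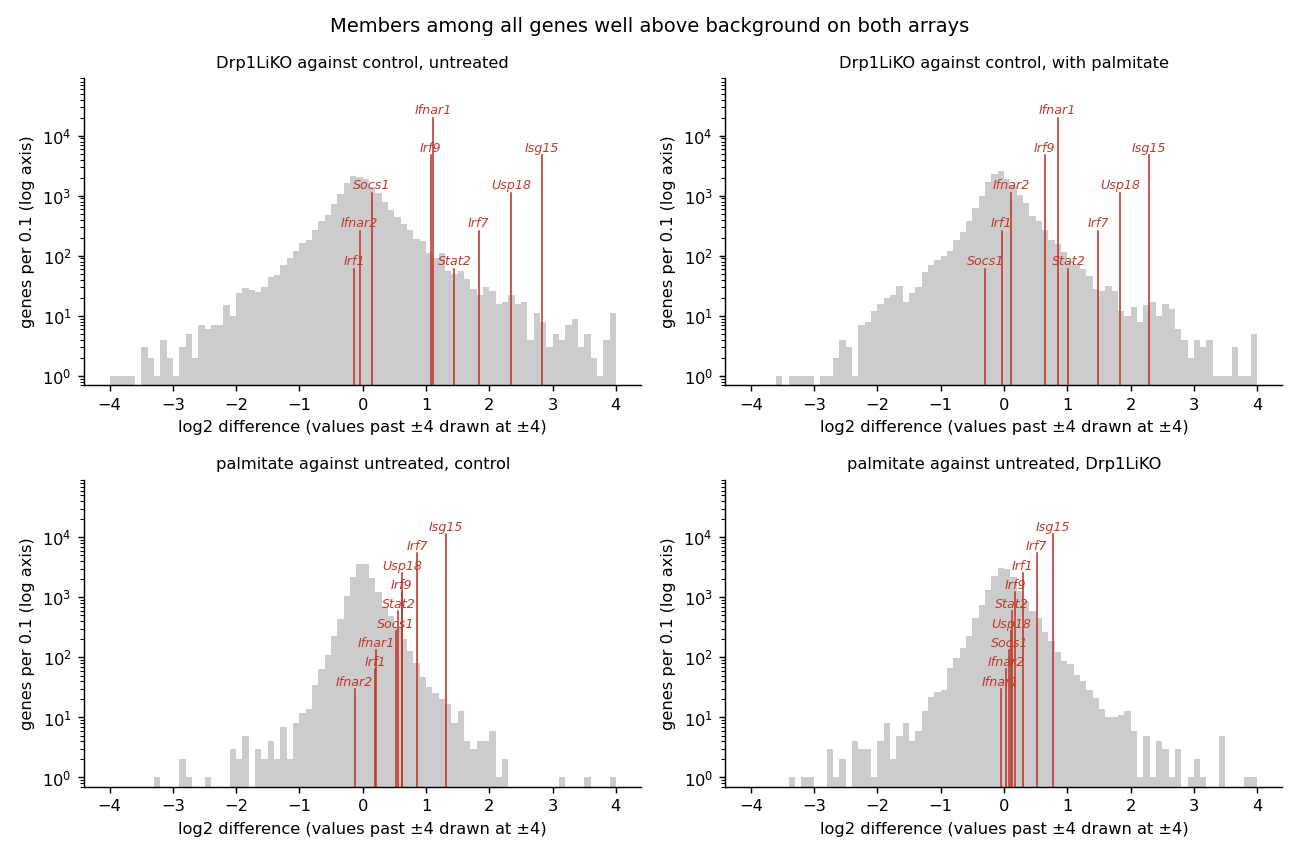
Distribution of log2 differences over all genes well above background on both arrays of each comparison (grey bars, genes per 0.1 on a log axis), with the 9 members as red lines whose height carries no value. Isg15, Usp18 and Irf7 lay in the right tail of both genotype comparisons, at 2.84, 2.35 and 1.83 in untreated cells, and Irf1 and Ifnar2 near the centre.

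The second question is how the members responded to palmitate in each genotype. These comparisons share arrays with the genotype comparisons, so their values stand side by side and are not independent. In control cells 1 member, Isg15, exceeded its untreated level at least 2-fold, and 0 fell short of it by as much. Of 18773 genes tested in control, 2.83% were at least 2-fold higher and 2.87% lower. For Drp1LiKO cells 0 members passed 2-fold in either direction, against 3.92% higher and 3.11% lower of 19751 genes.

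The response of Isg15 was 1.32 in control, 2.49-fold, and 0.77 in Drp1LiKO, 1.70-fold. Irf7 differed by 0.86 and 0.52, Usp18 by 0.62 and 0.11, Irf9 by 0.61 and 0.18, Stat2 by 0.56 and 0.13, and Socs1 by 0.52 and 0.08. Each of these 6 genes had the larger value in control cells. Second probes gave 0.87 and 0.73 for Irf7 and 0.48 and -0.01 for Irf9. Stat2's dim second probe gave -0.04 in control, where it was not flagged with palmitate, and -0.12 in Drp1LiKO. The higher Stat2 level with palmitate in control thus rests on 1 probe. In control they were among the 838 genes with the highest responses of 16832 measured on both arrays, although 5 of them stayed below 2-fold. Irf1 gave 0.20 in control and 0.30 in Drp1LiKO, Ifnar1 0.21 and -0.05, and Ifnar2 -0.13 and 0.04. The median response of the 9 members was 0.56 in control and 0.13 in Drp1LiKO, beside 0.01 and 0.00 for all genes tested. Both member medians are the values of Stat2 at its brightest probe.

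Isg15, Usp18, Irf7, Irf9 and Stat2 had the same order of arrays, from control through control with palmitate and Drp1LiKO to Drp1LiKO with palmitate. This order held at the probe that stands for each gene, whereas the second probes of Stat2 and Irf9 gave other orders. With 1 array per group it could not be judged which neighbours in this order differ beyond their spread. The palmitate response in Drp1LiKO minus that in control was -0.55 for Isg15, -0.51 for Usp18, -0.44 for Socs1, -0.43 for Irf9, -0.43 for Stat2 and -0.35 for Irf7. At the second probes it was -0.50 for Irf9, -0.14 for Irf7 and -0.08 for Stat2, whose probe was dim. Over 16613 genes well above background on all 4 arrays this quantity had a median of 0.00 and its 5th and 95th percentiles were -0.50 and 0.49. Isg15 and Usp18 lay just beyond the 5th percentile, and the difference between the genotypes in the response was not tested.

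The rest of the pathway was read from gene lists. Of 15 interferon ligand genes on the array, 9 were well above background on at least 1 array, and Ifng, the gene of interferon gamma, on none. Ifnb1, the gene of interferon beta, was above background on the Drp1LiKO palmitate array only, at -4.42. Ifna11 was above background on both Drp1LiKO arrays, at -4.31 and -3.23, and on neither control array. It was at least 1.34-fold higher in Drp1LiKO in untreated cells and at least 2.69-fold higher with palmitate. With such dim genes set at their bound, Drp1LiKO exceeded control at least 2-fold in 0 of 8 ligand genes tested without palmitate and in 1 of 7 with it.

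Among 8 other receptor chains and Janus kinases 0 passed 2-fold in either direction in either genotype comparison. The gene closest to the threshold was Ifnlr1, a chain of the interferon lambda receptor, with 1.00 (just under 2-fold) and 0.79. Among 7 other interferon regulatory factors only Irf8, a factor of myeloid cells, was at least 2-fold higher, by 1.29 and 1.27, while Irf5 differed by -0.97 and -0.67. Among 15 other inhibitors of Janus kinase and STAT signalling 0 were at least 2-fold higher in untreated cells and 1 with palmitate, Socs3, which gave 0.02 and 1.20. Socs3 read -0.81, -0.79, -0.57 and 0.63 in control, Drp1LiKO, control with palmitate and Drp1LiKO with palmitate, so that it was high on the last array alone.

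Isg15 is attached to proteins by a chain of enzymes. Uba7, which activates it, was higher in Drp1LiKO by 1.26 and 1.01, the 1 gene of 4 at least 2-fold higher in both conditions. Ube2l6, which conjugates it, differed by 0.62 and 0.46, the ligase Herc6 by 0.74 and 0.70, and the ligase Trim25 by -0.04 and 0.34.

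Most antiviral targets of ISGF3 were higher in Drp1LiKO. Of 20 such genes 17 exceeded control at least 2-fold in Drp1LiKO without palmitate and 15 with it, and 0 were at least 2-fold lower. Ifit2 differed by -0.10 and -0.63, and Bst2 by -0.22 and 0.92. Their median difference was 3.22 and 2.53, or 2.91 and 2.39 with genes dim in control set at their bound. Rsad2, the antiviral enzyme viperin, differed by 5.43 and 3.70, Oasl1, of the oligoadenylate synthetase family, by 3.13 and 2.54, and Ifit1, which binds foreign RNA, by 3.61 and 2.60. Zbp1, a sensor of nucleic acids in Z form, differed by 2.34 and 2.21. With palmitate in control cells 11 of 17 tested were at least 2-fold higher, with a median of 1.1. In Drp1LiKO cells 2 of 20 were, Zbp1 and Bst2, with a median of 0.34.

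Of 15 tested targets of interferon gamma and Irf1, 6 were at least 2-fold higher in Drp1LiKO in both conditions, namely Cxcl9, Cxcl10, Gbp3, Igtp, Cd274 and Nlrc5, and 0 were at least 2-fold lower. The median was 0.79 in untreated cells and 0.76 with palmitate. Cxcl10, a chemokine that interferon alpha and beta also induce, differed by 3.52 and 1.81, and Cxcl9, a chemokine typical of interferon gamma, by 1.27 and 1.17. The plot of gene lists places these groups beside the members.

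**Figure D4:**
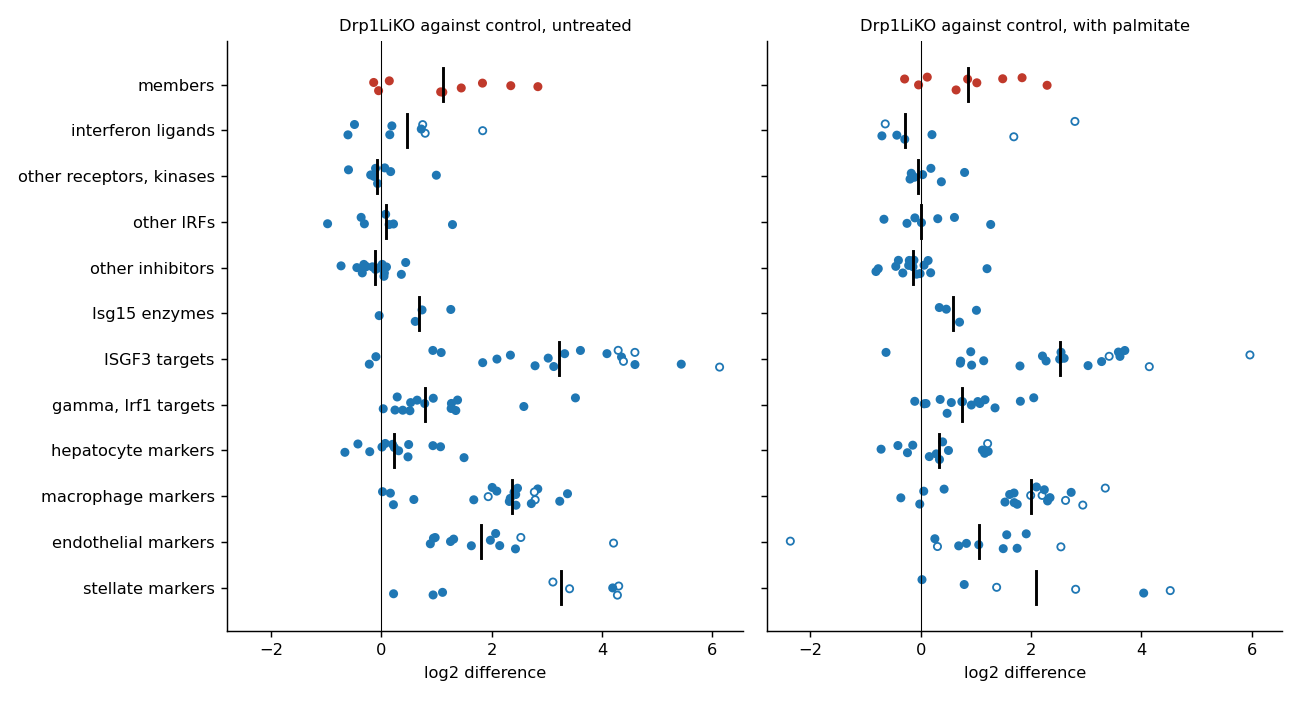
Log2 difference of Drp1LiKO minus control for the members (red) and for the genes of each list (blue), in untreated cells on the left and with palmitate on the right. Each point is a gene, an open point a gene well above background on 1 of both arrays only, and the black bar the list median. The ISGF3 targets had medians of 3.22 and 2.53, and the endothelial markers 1.80 and 1.05, the latter 0.83 with dim genes at their bound.

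Markers of other liver cells differed between the genotypes along with the members. Of 21 macrophage markers on the array 20 were well above background on at least 1 array, and in Drp1LiKO 16 of 20 tested exceeded control at least 2-fold without palmitate and 15 of 19 with it. Their median difference was 2.34 and 1.75 with dim genes at their bound. Their summed level, in multiples of the 75th percentile, was 34.6 in control, 71.2 in Drp1LiKO, 42.5 in control with palmitate and 69.0 in Drp1LiKO with palmitate. Of the markers that define Kupffer cells, Clec4f and Vsig4 did not stand well above background on the 2 control arrays, nor Timd4 on any. Vsig4 also fell short of it on the Drp1LiKO palmitate array.

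Endothelial markers summed to 2.48, 6.87, 2.51 and 4.86 in the same order, with 8 of 12 and 5 of 11 at least 2-fold higher in Drp1LiKO at their bound and medians of 1.47 and 0.83. With palmitate 1 endothelial marker, Tek, was lower by as much. Stellate markers summed to 45.0, 60.7, 46.3 and 58.2, with 6 of 8 and 4 of 6 at least 2-fold higher and medians of 1.67 and 1.29 at their bound, and Des was above background on none. Acta2, at 5.46 in control, made up most of the stellate sums and differed by 0.22 and 0.02. Hepatocyte markers summed to 1304, 1303, 1298 and 1331, and all 14 were above background on at least 1 array. Serpina1a and Alb made up most of the hepatocyte sums. At their bound 2 of 13 hepatocyte markers, Tat and Tdo2, were at least 2-fold higher in Drp1LiKO without palmitate. With it 3 of 13 were, Tat, Tdo2 and Cps1, and 0 were lower by as much in either comparison. Their medians were 0.24 and 0.34, and Cyp2e1 differed by -0.66 and -0.72. Of the markers of plasmacytoid dendritic cells, a main source of interferon alpha, Siglech differed by 0.18 and 0.25, and Ccr9 and Klk1 were above background on no array. Siglech was bright, from 5.76 in control to 6.11 in Drp1LiKO with palmitate. These markers did not go together, so the amount of these cells was not read from them. Neutrophil markers (3 of 8 above background) summed to between 1.37 and 2.01, lymphocyte markers (4 of 9) to between 2.25 and 3.32, and cholangiocyte markers (4 of 6) to between 41.8 and 60.5, the last higher in control. Spp1, most of the cholangiocyte sum, differed by -0.60 and -0.40 and Krt19 by -0.37 and -0.40, while Sox9 differed by 0.45 and 0.21. Elane made up most of the neutrophil sums and Cd4 most of the lymphocyte sums. Single dim markers differed more than these sums. Ly6g was at least 4.84-fold higher in Drp1LiKO without palmitate and at least 3.12-fold with it. With palmitate S100a8 differed by 2.39, and Cd79a was at least 4.35-fold higher. At their bound 0 neutrophil or lymphocyte markers tested were at least 2-fold lower in Drp1LiKO. The part of these cells in the members' differences was not tested.

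Palmitate responses of the macrophage markers ran in both directions. In control cells 3 of 17 macrophage markers tested exceeded their untreated level at least 2-fold and 4 were lower by as much, and in Drp1LiKO cells 1 of 20 was higher and 6 lower. Marco, a scavenger receptor, differed by 3.59 in control and 2.77 in Drp1LiKO and Cd5l, a protein secreted by macrophages, by -1.99 and -3.07, beside 1.32 and 0.77 for Isg15.

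The genes whose differences from array to array were most like those of each member were found among 13591 genes by Euclidean distance over the 4 arrays, after each gene was centred on its mean. For Isg15 they were Rac2 (distance 0.254), Fcer1g (0.279) and Wfdc17 (0.293), and Fcer1g is on the macrophage list. For Usp18 they were Gm3317 (0.081), Apol9b (0.237) and Prss46 (0.246), and for Irf7 Tmsb4x (0.188), Gbp6 (0.189) and Ifi204 (0.226). Gbp6 belongs to the guanylate-binding proteins and Ifi204 to the interferon-inducible DNA sensors. For Stat2 they were Igtp (0.103), Sdc3 (0.126) and Tgtp2 (0.143), and for Irf9 Lgals3bp (0.037), Gsap (0.072) and Pde4b (0.110). Igtp, an interferon-inducible GTPase, is on the list of gamma targets above. Irf1 was nearest to 5330426P16Rik (0.013), Gm13304 (0.023) and Skint9 (0.027), and Socs1 to A730028G07Rik (0.033), 3830432H09Rik (0.041) and Zfp385c (0.058). With 4 arrays this is a description of likeness and holds no test.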

How the data were processed

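Each of 4 arrays held RNA of 1 group, amplified from low input, labelled with Cy3 and put on a mouse oligonucleotide array of 62976 spots. The deposited scanner tables hold background-subtracted intensity values on a linear scale, without scaling between arrays. Their headers name Feature Extraction 10.7.1.1, whereas the submitters' processing notes name 9.5.1.1. A further table of intensity values, processed by the authors, was used in 1 alternative. For RNA extraction, GEO's labels and the study's methods disagree on the kit. Columns without a sample numbered 0.

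From the log2 of the deposited intensity each array's 75th percentile over its spots was subtracted (485, 542, 424 and 468 for control, Drp1LiKO, control with palmitate and Drp1LiKO with palmitate). Control spots and spots flagged as outliers were left out, and repeat spots were averaged; their median SD was 0.04 log2 units or less, which holds spot noise only. A gene was represented by its probe with the highest mean level among those flagged above background anywhere. In a comparison a gene was tested if flagged above background on 1 array or both, and called at a difference of at least 1 log2 unit. Where the probe was dim on one array, the bound is the brighter level minus either the dim level or the lowest level flagged above background on that array, whichever is higher. No p-value was computed for pairs of arrays.

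Genotype was tested in an additive model with palmitate, which is also the slide, by limma 3.58.1 (R 4.3.3; eBayes after lmFit). Tests were two-sided and called at 0.05 after Benjamini-Hochberg adjustment. The script was tested on simulated data of 20619 genes. Alternatives were normexp background correction (offset 50), scaling to the median, quantile normalization, the deposited processed table, the mean of all probes, other rules for dim probes, an intensity trend and a fit without palmitate. Other steps used Python 3.11.15 with pandas 2.3.3, numpy 2.4.6 and matplotlib 3.10.9. Of the members' 17 probe accessions 16 matched the RefSeq symbol.

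1 pathway list is not reported here. The members and the gene lists were chosen with earlier results of these data known. All members were named with every probe, as were genes needed to spell out a count of 5 or fewer. Also named were Dnm1l, Gapdh (differences of -0.08 and -0.11) and the 3 nearest genes of 7 members. Of the list genes at least 2-fold different in both genotype comparisons and well above background on all 4 arrays, only a part was named. Other list genes were named after their values were seen.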

Additional observations from a re-analysis of the deposited data

Results flagged for a closer look

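Among the members, 4 effects had opposite signs in the conditions or genotypes compared, with 1 array per group. The genotype difference of Socs1 was 0.15 in untreated cells and -0.29 with palmitate, a change of -0.44. That of Ifnar2 was -0.05 and 0.12, a change of 0.17. The palmitate response of Ifnar1 was 0.21 in control and -0.05 in Drp1LiKO, a change of -0.26, and that of Ifnar2 was -0.13 and 0.04, a change of 0.17. None of these differences was tested, and all are smaller than 2-fold.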

How the results depend on the processing

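Isg15, Usp18 and Irf7 stayed at least 2-fold higher in Drp1LiKO in both genotype comparisons under every alternative run. The number of members at least 2-fold higher in untreated cells was 4 when arrays were scaled to their median (without Irf9 and Ifnar1), 5 with the mean of all probes (without Ifnar1) and 6 otherwise. With palmitate it was 3 under normexp and under median scaling (without Stat2) and 4 otherwise. The other rules for dim probes could not change these counts, since each member's brightest probe was well above background on all 4 arrays. Scaling to the median moved the median of all genes by -0.18 in untreated cells and by -0.16 with palmitate for the genotype, and every member with it. Isg15 remained the 1 member past 2-fold in the palmitate comparison of control cells, and 0 were in Drp1LiKO. The largest move of a single value was that of Ifnar1 with palmitate, from 0.85 to -0.05 with the mean of all probes, since its probes disagree. In limma the number of members called went from 0 to 5 under normexp, to 6 without genes dim on any array (fewer genes tested, 16613) and to 6 with an intensity trend in the variance, where 1416, 2588 and 5353 genes were called in all; it was 0 under the other alternatives. The cause was not tested. The limma fit compares the genotypes within each slide through the palmitate term, and without that term it also called 0 members (smallest adjusted p over all genes 0.0534). No group has a replicate that could be left out. Dim probes limit Stat2's second probe and some of the ligand genes, ISGF3 targets and cell type markers, for which a fold is only a bound.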
